A study of Homo sapiens with 6 samples.

Results

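The genes described here are 10 protein-coding genes of the heart-muscle sarcomere, MYH7, MYH6, MYL2, MYL3, MYL7, ACTC1, ACTA1, TNNT2, TTN and MYBPC3, out of 58381 genes counted. They were read in 786-0 cells, a human clear cell renal carcinoma line. They were picked by name because they fell with decitabine in these same libraries. Their fall against DMSO is therefore given as a description, without a test. All 10 symbols matched 1 gene each, and all 10 passed the low-count filter, for which their DMSO reads were enough. MYL3, ACTC1, ACTA1, TTN and MYBPC3 also passed when only the decitabine groups were fitted. Heart-muscle identity was not a property of the cells by label: the line is renal. Of 10 renal carcinoma epithelium markers, 9 had reads in every library, and CA9 had 0 reads in both DMSO libraries and 8 to 27 with decitabine. PAX8, a renal lineage factor, stood at 254 CPM (reads of a gene relative to the size of the library) in both DMSO libraries, 144 and 171 at 100 nM, and 80.4 and 80.2 at 300 nM.

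Each group had 2 libraries of polyadenylated RNA. All 6 came from 786-0 cells labelled as SETD2 knockout, so the DMSO controls carry that alteration too, and a parental group was not analysed here. Whether the knockout is 1 clone is not in the labels. The cells received the vehicle DMSO, decitabine at 100 nM or decitabine at 300 nM on each of 3 days. The medium was renewed on day 4 and RNA taken on day 5. Decitabine is a nucleoside drug that enters replicating DNA and binds the maintenance methyltransferase DNMT1 there, which lowers DNA methylation over rounds of division. Whether the pairs were separate cultures is not in the labels, so p-values here measure the spread between libraries, which may be technical.

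The sarcomere is the contractile unit of striated muscle. Thick filaments of myosin heavy chains with their light chains pull on thin filaments of actin, calcium acts through the troponin complex on the thin filament, and titin spans from the Z-disc to the M-band as a molecular spring. MYH7, MYL2 and MYL3 are the ventricular and slow-muscle forms, MYH6 and MYL7 are the forms known for atrial muscle, and ACTC1 and ACTA1 encode the cardiac and skeletal alpha-actins.

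Promoter sequence is shown for 3 members because these carry a CArG box, the site that serum response factor (SRF) binds in many muscle promoters. RefSeq promoter windows (GRCh38.p14, 250 bases before to 50 after a start site) matched 8 of the 10 genes, in 11 windows. MYH7 and MYL2 had none among those used here. The 250 bases before the start are printed 5′ to 3′ on the minus strand, with the CArG box in capitals, at chr1:229434095-229434344 for ACTA1, chr15:34795550-34795799 for the outermost of the 3 ACTC1 starts and chr7:44141333-44141582 for MYL7.
ACTA1: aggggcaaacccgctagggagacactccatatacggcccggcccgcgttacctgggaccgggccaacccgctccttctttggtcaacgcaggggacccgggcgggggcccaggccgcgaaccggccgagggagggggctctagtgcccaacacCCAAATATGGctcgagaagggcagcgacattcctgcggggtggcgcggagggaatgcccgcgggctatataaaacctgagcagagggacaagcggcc
ACTC1: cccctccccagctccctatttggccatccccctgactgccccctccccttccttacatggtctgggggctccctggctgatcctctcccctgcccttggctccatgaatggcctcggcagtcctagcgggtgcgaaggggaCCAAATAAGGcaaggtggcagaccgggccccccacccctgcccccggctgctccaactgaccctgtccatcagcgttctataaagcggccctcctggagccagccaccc
MYL7: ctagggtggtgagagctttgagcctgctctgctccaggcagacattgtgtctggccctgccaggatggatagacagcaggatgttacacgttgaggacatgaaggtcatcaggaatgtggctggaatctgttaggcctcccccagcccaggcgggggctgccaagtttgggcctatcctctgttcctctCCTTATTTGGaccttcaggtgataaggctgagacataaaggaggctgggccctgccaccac
The box began 97, 109 and 61 bases before the start of ACTA1, ACTC1 and MYL7. Among 35116 promoter windows of the same length, 1.29% held a CArG box on either strand. The core letters TATAAA, looked for on both strands, were in 3 of the 11 member windows against 11.5% of all windows. GATAA, a core of the sites of GATA factors, was in 4 against 22.7%, and CATTCC, a core of the sites of TEAD factors, in 6 against 14.03%. CpG dinucleotides, where DNA methylation sits, numbered 29 in the ACTA1 window, 16 in the outermost ACTC1 window and 3 in the MYL7 window, and from 2 to 39 over all 11 windows. The median over all windows was 14, with quartiles of 4 and 28. Other windows held 8 for TNNT2, 3 for TTN and 4 each for MYBPC3 and MYH6. The 2 MYL3 starts had 39 and 7, and the inner ACTC1 starts 7 and 2. Most member windows thus lay below that median, with a few above it. These matches describe letters only, and methylation was not measured in the files used here.

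Depth was even, from 89159112 to 96646427 reads assigned to genes per library, and 23160 genes were tested. Levels are CPM scaled by TMM factors. A count of 3 reads, the limit that a count of 0 allows, was worth 0.0306 to 0.0362 CPM on this scale. The 2 mates of a fragment were counted apart, so small counts were mostly even, and every counting interval below is narrower than the true error and covers counting error only. A gene was called where its p-value in edgeR, adjusted by Benjamini and Hochberg's method over all genes tested, was under 0.05. Of all genes tested, 18.7% were called lower and 24.0% higher at 100 nM, and 31.1% lower and 34.8% higher at 300 nM. All 10 members were called lower at both doses, which the choice of the genes fixes. SETD2, the targeted gene, had 7490 and 7638 DMSO reads, 3905 and 4536 with 100 nM, and 1360 and 2057 with 300 nM, and read totals over the gene do not show the edit itself. In bulk RNA, fewer cells that express a gene and less RNA per cell cannot be told apart.

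MYH7, the slow and ventricular myosin heavy chain and the motor of the thick filament (ENSG00000092054.12, chr14:23412738-23435718, minus strand), had 1760 and 1506 reads in the DMSO libraries. It had 2 and 0 reads at 100 nM and 6 and 2 at 300 nM. The DMSO libraries were nearly alike and far above all 4 decitabine libraries, which were within a few reads of 0. In CPM, the DMSO level was 17.2 ± 1.62 (SD, n = 2). The level at 100 nM was 1636-fold lower, with a counting interval of 453 to 13519, and at 300 nM it was 381-fold lower.

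MYH6, the atrial heavy chain, lies next to MYH7 in the same orientation (ENSG00000197616.11, chr14:23381990-23408277). It had 111 and 69 DMSO reads, 0 and 0 with 100 nM, and 6 and 0 with 300 nM. No decitabine library came near either DMSO library. The level of 0.944 ± 0.297 CPM (SD, n = 2) in DMSO was at least 60.1-fold higher than at 100 nM, against a floor of 3 reads over the group. The heavy chains are close copies of each other, so the division of reads between MYH6 and MYH7 is uncertain. Per kilobase of merged exon, MYH6 stood at 0.0591 of MYH7 in the first DMSO library and 0.0430 in the second. MYH7 was thus the main heavy chain in both.

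MYL2, the ventricular regulatory light chain (ENSG00000111245.14, chr12:110910819-110920722), had 526 and 394 DMSO reads, 4 and 2 with 100 nM, and 0 and 14 with 300 nM. The 300 nM libraries straddled those at 100 nM, and all 4 were far below DMSO. MYL3, the ventricular essential light chain (ENSG00000160808.9, chr3:46857872-46882169), had 199 and 108 DMSO reads, 20 and 2 with 100 nM, and 14 and 28 with 300 nM. It kept more of its DMSO level than the other ventricular genes, 7.004% at 100 nM and 14.4% at 300 nM, and the 100 nM libraries differed between themselves by 20 against 2 reads. Its fitted log2 fold change at 100 nM, -3.80, was -6.11 without the first 100 nM library and -2.97 without the second. PTH1R, which overlaps MYL3 on the opposite strand, had more reads than MYL3 in every decitabine library. Its reads were 41 and 46 with 100 nM and 77 and 110 with 300 nM, and the counting carries no strand option. The part of PTH1R transcripts in the MYL3 reads was not tested. MYL7, the atrial regulatory light chain (ENSG00000106631.8, chr7:44138864-44141332), had 123 and 26 DMSO reads, 0 and 0 with 100 nM, and 8 and 14 with 300 nM. Here the second DMSO library was nearer to the 300 nM libraries than to the first DMSO library. The DMSO level of 0.778 CPM had an SD of 0.709 (n = 2), and the fitted log2 fold change at 300 nM, -2.65, was -1.17 without the first DMSO library.

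MYBPC3, cardiac myosin-binding protein C, which braces the thick filament (ENSG00000134571.10, chr11:47331397-47352702), was the steadiest member in DMSO. It had 332 and 321 reads there, 14 and 20 at 100 nM, and 30 and 38 at 300 nM. The groups did not overlap, and the order was DMSO, then 300 nM, then 100 nM. It kept 5.23% of its DMSO level of 3.43 ± 0.0275 CPM (SD, n = 2) at 100 nM and 11.1% at 300 nM.

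ACTC1, cardiac alpha-actin of the thin filament (ENSG00000159251.6, chr15:34788096-34796139), had 626 and 252 DMSO reads, 8 and 10 with 100 nM, and 8 and 18 with 300 nM. ACTA1, the skeletal alpha-actin that heart muscle also makes (ENSG00000143632.14, chr1:229431245-229434098), had 522 and 104 DMSO reads, 10 and 22 with 100 nM, and 26 and 24 with 300 nM. For both actins the first DMSO library was much the higher of the pair, and both DMSO libraries stayed above all decitabine libraries. The coding regions of the alpha-actins are nearly alike, so the division of reads between them is uncertain. ACTC1 kept 2.06% and 3.12% of its DMSO level at 100 and 300 nM, and ACTA1 5.20% and 8.68%. These shares rest largely on the first DMSO library. Without it the fitted log2 fold change of ACTA1 was -2.70 in place of -4.27 at 100 nM and -1.97 in place of -3.53 at 300 nM, and that of ACTC1 was -4.80 in place of -5.58 and -4.20 in place of -4.97. Without the second DMSO library ACTA1 was at -5.00 and -4.26.

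TNNT2, cardiac troponin T, which ties the troponin complex to the thin filament (ENSG00000118194.18, chr1:201359008-201377762), had 124 and 136 DMSO reads, 1 and 0 with 100 nM, and 6 and 14 with 300 nM. It was the one member with more reads in the second DMSO library, and the doses did not overlap. It kept 0.372% of its DMSO level at 100 nM, a ratio resting on 1 read, and 8.05% at 300 nM. LAD1 overlaps it on the same strand and had 22 and 20 DMSO reads, 164 and 123 with 100 nM, and 1137 and 998 with 300 nM. The part of LAD1 transcripts in the TNNT2 reads at 300 nM was not tested.

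TTN, titin (ENSG00000155657.26, chr2:178525989-178830802), gave most of the members' reads. It had 5576 and 5241 DMSO reads, 201 and 195 with 100 nM, and 142 and 161 with 300 nM. The pairs agreed closely, and the 300 nM libraries were the lowest. Its merged exons run to 118976 bp, so per kilobase it stood at 0.478 ± 0.0134 RPKM (SD, n = 2) in DMSO, below 7 other members. It kept 3.66% of its DMSO level at 100 nM and 3.003% at 300 nM. TTN-AS1 overlaps TTN on the opposite strand and had 10 and 18 reads in DMSO against 46 and 94 at 300 nM. The counting carries no strand option, so reads of the antisense gene cannot be told apart from those of TTN.

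**Figure D1:**
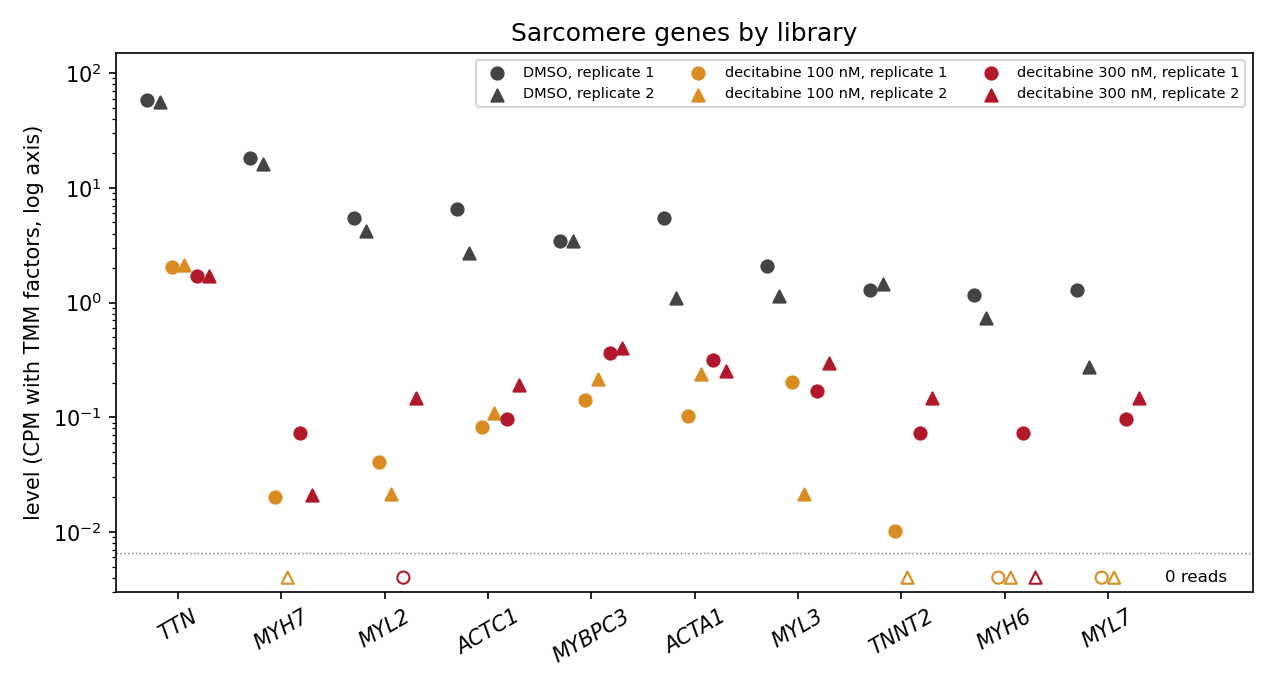
Level of each of the 10 sarcomere genes in each of the 6 libraries, as TMM-scaled CPM on a log axis, coloured by DMSO, 100 nM and 300 nM decitabine; open symbols under the dotted line are libraries with 0 reads. Both DMSO libraries lie above all 4 decitabine libraries for every gene, with the widest DMSO gap for ACTA1 and MYL7 and the narrowest for MYBPC3.

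Per kilobase of merged exon, the order of the DMSO levels was MYL2 at 3.55 ± 0.665 RPKM, MYH7 at 2.82 ± 0.266 and ACTA1 at 2.19 ± 2.05, followed by MYL3 at 1.18 ± 0.479 (SD, n = 2 each). ACTC1 at 0.991 ± 0.584, MYBPC3 at 0.802 ± 0.00642 and MYL7 at 0.534 ± 0.486 came next. TTN at 0.478 ± 0.0134, TNNT2 at 0.188 ± 0.0153 and MYH6 at 0.145 ± 0.0458 were the lowest. MYL2 was above MYH7 by a small margin, 3.08 in its lower library against 3.01 in the higher library of MYH7. Neighbours from MYH7 to TTN overlapped in their libraries, TTN stood apart from TNNT2, and TNNT2 overlapped MYH6. Lengths merge all annotated transcripts, which understates genes with many, such as TTN and TNNT2. ACTA1 had 2.59 times the level of ACTC1 per kilobase in the first DMSO library and 1.28 times in the second, with counting intervals that did not overlap. MYL7 had 0.218 of the MYL2 level in the first and 0.0616 in the second, again without overlap. The balance of these isoforms thus differed between the DMSO libraries, while MYL3 over MYL2, at 0.379 and 0.275, had intervals that met.

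Among the members, the 2 DMSO libraries differed most in the alpha-actins and in MYL7. ACTA1 was 4.91-fold higher in the first DMSO library than in the second (95% exact counting interval 3.97 to 6.12), MYL7 4.63-fold (3.01 to 7.36) and ACTC1 2.43-fold (2.10 to 2.82). MYL3 was 1.80-fold higher (1.42 to 2.30), MYH6 1.57-fold (1.15 to 2.16), MYL2 1.31-fold (1.14 to 1.49) and MYH7 1.14-fold (1.07 to 1.23). TTN had a ratio of 1.04 (its interval began just above 1), MYBPC3 of 1.01 (0.865 to 1.18) and TNNT2 of 0.892 (0.693 to 1.15). The members thus did not share one ratio: the interval lay above 1 for 8 of them and included 1 for the other 2, MYBPC3 and TNNT2. As mates were counted apart, these intervals are too narrow, and a true interval for TTN may include 1.

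The same ratio was taken over the 15199 genes with at least 100 reads in the 2 DMSO libraries together. Its median was 0.984, its 5th percentile 0.810 and its 95th 1.30. A ratio of 1.5 or more was reached by 5 of the 10 members and by 1.86% of all these genes, and 2 or more by 3 members and 0.296% of all. The genes were not matched to the members by reads, and ratios of genes with few reads scatter more. MYL7, MYH6 and MYL3 had only 149, 180 and 307 DMSO reads, so these shares are not a matched background for them. ACTA1 had the 3rd highest ratio and MYL7 the 4th, and 14 genes were at or above ACTC1. TTN, MYH7, MYBPC3 and TNNT2, by contrast, lay between the 5th and 95th percentiles. The median of the members was 1.44. Across the 10 members the ratio ran against exon length (Spearman's rho -0.55, over genes of shared libraries). Over all genes with exons under 2 kb the median ratio was 1.04, against 0.978 for longer ones. A part of exon length in the members' ratios was not tested.

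**Figure D2:**
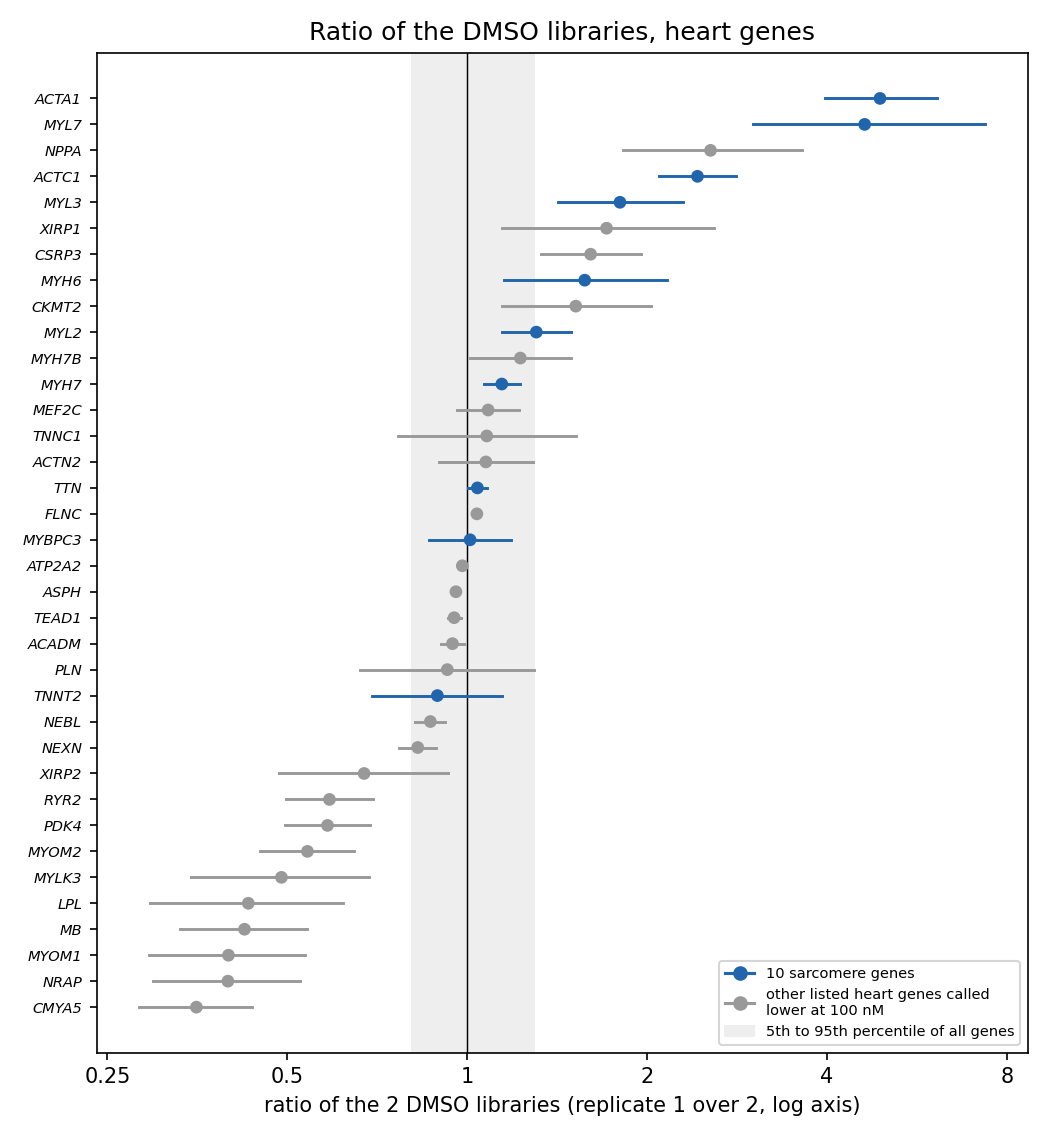
Ratio of the first to the second DMSO library, on a log axis, for the 10 members with 95% exact counting intervals and for 26 other listed heart genes called lower at 100 nM, against the band from the 5th to the 95th percentile of 15199 genes. ACTA1, MYL7 and ACTC1 stand far above the band, and 4 members lie inside it. Of the 26 other genes, 10 fall below it and 4 lie above it.

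Other heart genes departed from the band on both sides. Of the 26 drawn, 10 fell below it and 4 lay above it. CMYA5, a large M-band and Z-disc associated protein, had 116 and 322 reads, a ratio of 0.352, and NRAP, an actin-anchoring protein of growing myofibrils, had 72 and 177, a ratio of 0.398. MB, myoglobin, had 98 and 226 reads, a ratio of 0.424, while MYL4, the atrial essential light chain, had 114 and 18 and the highest ratio of all, 6.19. Of the 10 genes with the highest ratio, 3 were muscle genes, namely MYL4 and the members ACTA1 and MYL7. Of the 10 with the lowest, 5 were in the muscle lists. No share of muscle genes over all genes stands beside these counts, so nothing is read from them. These genes were named after their values were seen. Among the genes so named, some were higher in the first DMSO library and others in the second.

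Summed over the members, the level was 103.0 and 86.8 CPM in the DMSO libraries, 2.65 and 2.72 at 100 nM, and 2.97 and 3.31 at 300 nM. The sum left was 2.83% at 100 nM and 3.31% at 300 nM. TTN was 56.3% and 64.3% of the members' reads in DMSO and 77.3% and 77.7% at 100 nM. Without TTN the sum left was 1.59% at 100 nM and 3.77% at 300 nM, so the higher sum at 300 nM rests on the other genes. TTN itself stood at 2.08 CPM at 100 nM and 1.71 at 300 nM, a difference that did not pass the test. The share left per gene ran from 0% (MYH6, MYL7) to 7.004% (MYL3) at 100 nM and from 0.273% (MYH7) to 15.7% (MYL7) at 300 nM. Of the members, 2 and 4 had no read in the 100 nM libraries and 1 in each 300 nM library. The small share of the sum is thus mostly that of TTN, and at 300 nM MYL7, MYL3 and MYBPC3 each kept over 10% of their DMSO level.

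**Figure D3:**
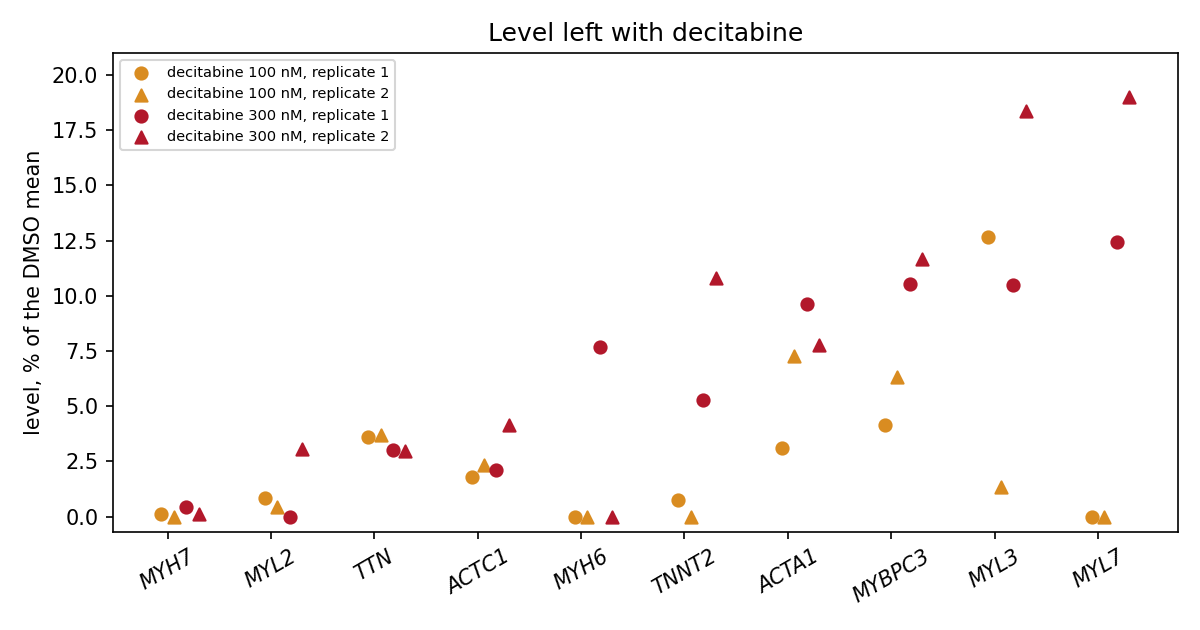
Level left in each decitabine library as a percent of the DMSO mean for each member, by dose. Of the 10 members, 9 keep a higher mean share at 300 nM than at 100 nM, while TTN keeps 3.66% and 3.003%. Several of the 9 rest on a few reads, and 3 were called higher, where 20.0% of all genes tested were. Nothing is read from this count about the members.

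The rule names decitabine against DMSO, and the comparison of 300 nM with 100 nM was tested, although the same decitabine libraries had entered the choice. MYL7, TNNT2, MYH6, MYH7 and MYL2 passed the low-count filter through their DMSO reads alone. They were not tested when only the decitabine groups were fitted. Higher at 300 nM were MYL7, TNNT2 and MYBPC3, 3 of the 10, where 20.0% of all genes tested were called higher and 23.4% lower. A count of 3 in 10 is near that share, and nothing is read from it about the members. TNNT2 had a log2 fold change of 4.10 (SE 0.98, edgeR adjusted p = 0.003) and MYBPC3 of 1.09 (SE 0.35, edgeR adjusted p = 0.018). MYL7, with 22 reads against 0, was at least 7.87-fold higher against a floor of 3 reads over the group (edgeR adjusted p = 0.005). For MYBPC3, the call was lost without the first 100 nM library, where the edgeR adjusted p was 0.159, and without the second 300 nM library, where it was 0.0575. The TNNT2 value ran from 3.29 without the second 100 nM library to 6.38 without the first.

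By edgeR, 0 members were called lower at 300 nM than at 100 nM, 0 had an unadjusted p under 0.05 in that direction, and DESeq2 called 0. TTN came closest, with a log2 difference of -0.28 (SE 0.15, edgeR adjusted p = 0.144), and on total counts without TMM scaling it was called, at -0.41 (edgeR adjusted p = 0.0427). An offset for transcript length turned it to 0.80. MYH6, at 6 reads against 0, did not pass (edgeR adjusted p = 0.072), nor did MYH7 at 8 reads against 2 (edgeR adjusted p = 0.121). MYH6 passed with the replicate block, with the length offset and without the low-count filter. Its log2 difference was 0 without the first 300 nM library, which held all of its 6 reads at that dose. That of MYH7 ran from 0.93 to 5.09 over 12 alternatives. MYL2, MYL3, ACTC1 and ACTA1 had log2 differences from 0.62 to 1.28, with SEs from 0.63 to 0.93. These 4 did not pass. Single libraries moved some of them: MYL3 was at 3.34 without the first 100 nM library, and MYL2 at 2.18 without the first 300 nM library. MYL2 was at -4.61 without the second 300 nM library, which held all of its 14 reads at that dose. The median over the members was 1.18, or 1.10 with MYH6 and MYL7 at their bounds, beside -0.04 over all genes.

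Beside the members, the lists of other muscle genes moved in both directions. Levels are given as the DMSO mean followed by the means at 100 nM and 300 nM, each of 2 libraries. Of the 7 other thin filament genes tested, 3 were lower and 1 higher at 100 nM, and 1 lower and 2 higher at 300 nM. NEBL, nebulette, a Z-disc anchor of the thin filament, fell from 24.5 ± 2.46 CPM (SD, n = 2) to 7.53 and 2.45, while TPM2, beta-tropomyosin, rose from 1.53 to 32.7 and 102.1. TPM1, alpha-tropomyosin, held 784 CPM in DMSO and did not pass the test. TNNC1, cardiac troponin C, fell by 1.58 on the log2 scale at 100 nM (edgeR adjusted p = 0.004) and did not pass at 300 nM, where its log2 fold change was 0.61.

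Of the 9 other thick filament and M-band genes, 5 were lower and 2 higher at 100 nM, and 4 lower and 2 higher at 300 nM. The lower count at 100 nM was between 2 and 5 over the alternatives. TRIM55, a ubiquitin ligase at the M-band, rose from 23.3 ± 0.569 CPM to 73.6 and 92.0, and MYOM3, an M-band myomesin, from 14.9 ± 0.839 to 26.1 and 27.0 (SD, n = 2). MYL4 did not pass at either dose. It turned from -0.17 to 1.67 on the log2 scale at 300 nM without the first DMSO library, where it had 114 reads.

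The Z-disc list had 17 genes tested, of which 8 were lower and 4 higher at 100 nM, and 8 lower and 6 higher at 300 nM, with all 8 of the first set lower at both doses. FLNC, filamin C, fell from 1538 ± 40.8 CPM (SD, n = 2) to 682 and 1046, and ANKRD1, a stretch-responsive repressor, rose from 7.41 ± 0.132 to 23.0 and 52.9. NEXN, an actin-binding protein, fell to 11.96 and 5.13 CPM from 16.2. With the length offset, FLNC at 300 nM turned from -0.56 to 0.10 on the log2 scale.

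Of the 12 calcium-handling genes, 6 were lower and 2 higher at each dose. PLN, phospholamban, the brake on the calcium pump, fell from 0.779 ± 0.0421 CPM (SD, n = 2) to 0.0414 and 0.0558, and ASPH fell from 827 ± 25.3 to 347 and 148. Of the 9 energy-metabolism genes, 5 were lower and 1 higher at 100 nM, and 5 lower and 3 higher at 300 nM. ACADM, a fatty acid oxidation enzyme, fell from 40.7 ± 1.63 CPM to 27.3 and 13.8, and FABP3, a fatty acid carrier, did not pass at 100 nM and rose to 5.92 CPM at 300 nM from 1.81 (SD 0.380, n = 2).

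Hormones and transcription factors of the heart moved both ways: of 12 tested, 3 were lower and 4 higher at 100 nM, and 4 lower and 7 higher at 300 nM. SRF, which binds the CArG box, rose from 65.9 ± 0.698 CPM to 84.4 and 123.8, and GATA6 from 17.7 ± 0.285 to 29.9 and 37.0 (SD, n = 2). TEAD1 fell from 127.8 ± 4.53 CPM to 75.9 and 32.7. The 8 channel and junction genes had 0 lower and 2 higher at 100 nM by edgeR (0 lower at an unadjusted p under 0.05 and 0 by DESeq2), and 1 lower and 4 higher at 300 nM.

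Smooth muscle genes mostly rose, with 7 of 10 higher and 1 lower at 100 nM and 8 higher and 1 lower at 300 nM. MYL9, a smooth and non-muscle light chain, rose from 76.5 ± 3.43 CPM to 219 and 477, and ACTA2, smooth muscle alpha-actin, from 1.71 ± 0.389 to 6.29 and 8.45 (SD, n = 2). Of the 21 skeletal muscle genes, 9 had no read in either DMSO library, among them the factors MYOD1, MYF5, MYF6 and MYOG. Of the 14 tested, 2 were lower and 5 higher at 100 nM, and 3 lower and 7 higher at 300 nM. Non-muscle actomyosin had 4 lower and 4 higher of 12 at 100 nM, and 2 lower and 6 higher at 300 nM. Its actins ACTB and ACTG1 did not pass at 100 nM and rose by 0.80 and 1.01 on the log2 scale at 300 nM. Over the alternatives, the count at 100 nM ran from 0 to 2 for skeletal genes lower, and from 2 to 4 lower and 1 to 4 higher for non-muscle genes. The count of calcium-handling genes higher at 300 nM ran from 1 to 5.

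**Figure D4:**
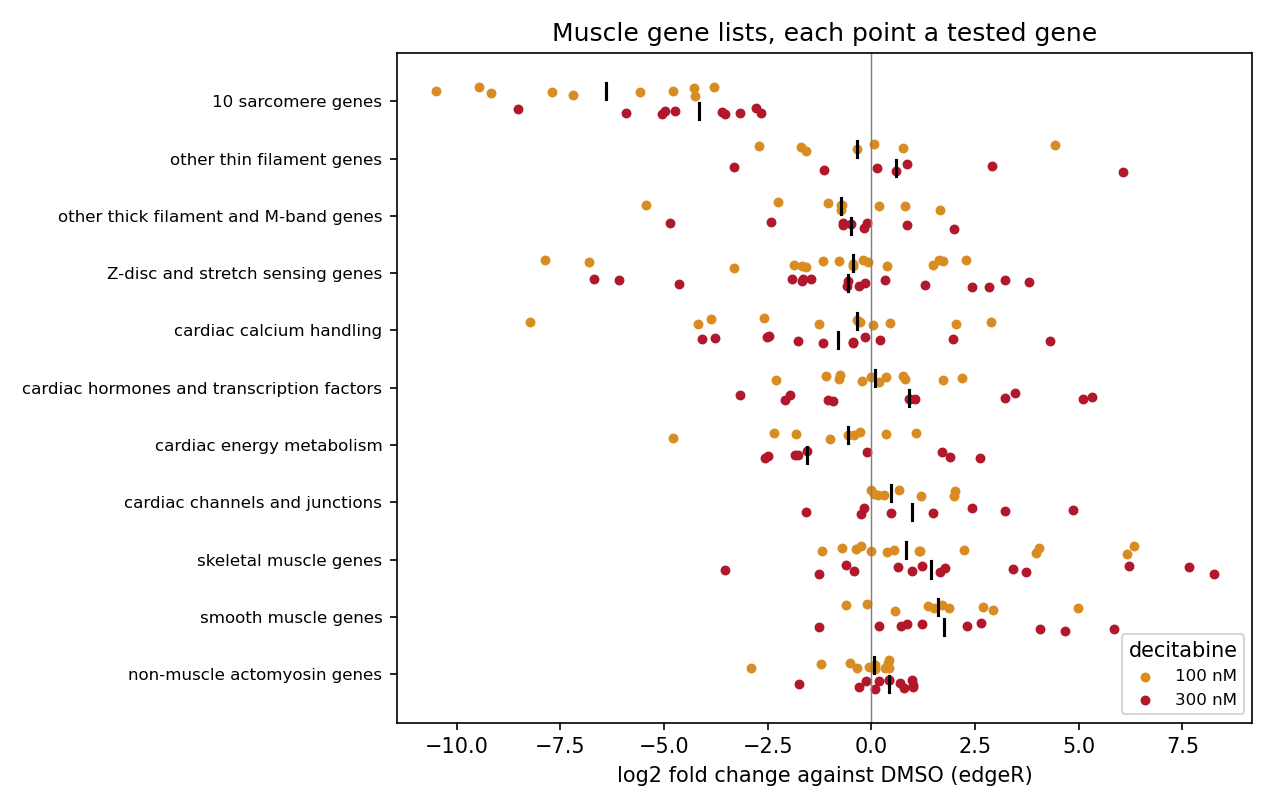
Log2 fold change of every tested gene of the members and the other muscle lists, at 100 nM and 300 nM against DMSO, with a black bar at each median. All 10 members lie below 0 at both doses, which their choice fixes. The other lists spread to both sides, with the smooth muscle list mostly above 0.

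The median log2 fold change of the members was -6.39 at 100 nM, or -5.61 with MYH6 and MYL7 at their bounds, and -4.16 at 300 nM. Over all genes tested it was 0.03 and 0.05. The other lists had medians of -0.34 and 0.61 for the thin filament, -0.72 and -0.49 for the thick filament, -0.44 and -0.56 for the Z-disc, and -0.33 and -0.81 for calcium handling. They were 0.09 and 0.92 for hormones and factors, -0.57 and -1.56 for energy metabolism, 0.49 and 0.98 for channels, 1.61 and 1.76 for smooth muscle, and 0.07 and 0.43 for non-muscle actomyosin. Skeletal muscle had 0.85 and 1.44, or 0.48 at 100 nM with genes at their bounds. The members' medians follow from their choice, so their distance from the other lists is not a result. Single genes of these lists also fell far, NRAP at -6.80 and -6.70 and CMYA5 at -5.43 and -4.87. Others, such as TPM2, rose. The lists were chosen with results of these libraries known.

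A panel of 11 cardiomyocyte markers outside the members summed to 11.9 CPM in both DMSO libraries, 5.72 and 5.92 at 100 nM, and 26.7 and 23.7 at 300 nM. Of its 10 tested genes, 6 were lower and 2 higher at 100 nM, and 4 lower and 3 higher at 300 nM. TBX5 was at 0 in the first DMSO library and had 8 reads in the second, and NKX2-5 had 14 and 12. NPPA, atrial natriuretic peptide, had 128 and 49 reads in DMSO, a ratio of 2.55, and between 8 and 26 with decitabine. NPPB, B-type natriuretic peptide, had 48 and 20 reads in DMSO and 1129 and 1057 at 300 nM. Most of the panel's sum at 300 nM was NPPB, at 13.6 and 11.2 CPM, and CKM, muscle creatine kinase, at 7.51 and 6.66. The higher sum at that dose is thus not a rise of the panel as a whole. Genes of this panel were named after their values were seen. The panel's part in the members' fall was not tested. Of the 10 renal carcinoma epithelium markers, 4 were lower and 4 higher at 100 nM, and 4 lower and 5 higher at 300 nM. They summed to 3932 and 3969 CPM in DMSO and to between 3955 and 6189 with decitabine. Fibroblast markers summed to 18.2 and 19.7 CPM in DMSO and to between 852 and 1023 with decitabine, and endothelial markers to 3.06 and 3.71 CPM and to between 29.96 and 58.7. Fibroblast and endothelial markers were thus higher in sum where the members were lower, and so were blood, hepatocyte and neuron markers. Blood markers summed to 0.0624 and 0.255 CPM in DMSO and to between 4.41 and 9.18 with decitabine. Hepatocyte markers went from 26.7 and 25.5 CPM to between 92.6 and 125.8. Neuron markers went from 8.85 and 7.06 CPM to between 10.7 and 16.9. Pluripotent stem cell markers were lower in sum, at between 20.3 and 27.6 CPM with decitabine. The part of these lists in the result was not tested.

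By the profile over the 6 libraries, the genes most like the members' mean were found among 15376 other protein-coding genes, as the smallest distance between centred log2(CPM + 0.1) values. SEMA6A, a semaphorin, was nearest at a distance of 1.14, with 9092 and 8882 DMSO reads, 810 and 846 with 100 nM, and 521 and 629 with 300 nM. VAV3 followed at 1.27, then CD24, a surface glycoprotein, at 1.35. ITGB6, NRAP, TINAG, SLC47A2, CMYA5, PLN, ALDH1A1, LIN7A, SLC17A3, VCAN, SHANK2 and CASQ2 completed the 15. Of these, NRAP, CMYA5, PLN and CASQ2 are in the muscle lists, and the others are not. Their DMSO ratios ran from 0.352 to 1.499, and SEMA6A and VAV3 stood at 1.00. The members themselves lay between 0.718 (ACTC1) and 3.73 (MYH7) from their own mean, so MYH7 was farther from it than any of the 15.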

How the data were processed

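Polyadenylated RNA of 6 libraries was used, in groups of 2 by the labels. The deposited counts are whole reads per gene, made by the authors with featureCounts 1.5.0-p3 on GENCODE v28 models, per the file headers, with no paired-end and no strand option. The submitters' processing notes also name STAR, SAMtools and DESeq2, and name hg19, but gene positions in the counts match GRCh38. The authors' deposited log2 matrix is variance-stabilised and was used only as an alternative scale.

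Counts were filtered with filterByExpr, scaled by TMM and fitted in edgeR 4.0.16 (R 4.3.3, limma 3.58.1) by the quasi-likelihood test over all 6 libraries, 3 residual degrees of freedom, with Benjamini-Hochberg adjustment; DESeq2 1.42.0 was an alternative. RPKM divides by merged exon length. DMSO ratios have exact (Clopper-Pearson) intervals at 95%. On counts simulated for each contrast, 109 genes were changed 4-fold and 91 genes 2-fold. The 4-fold changes were recovered in 92.7% (100 nM), 94.5% (300 nM) and 91.7% (300 against 100 nM) of those genes. The 2-fold changes were recovered in 78.0%, 75.8% and 74.7%, in the same order. Recovery was not split by read count, so these shares do not give the power for members with few decitabine reads. Only genes above a minimum mean count were changed, out of 23160, and far fewer than were called in the data. The shares thus do not give recovery where many genes change.

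The members and lists were chosen with earlier results of these data known. Named genes are the members, up to 4 genes per list by DMSO RPKM, overlapping genes with at least 10 reads, the 15 most like the members, and SETD2; others are said to be named after their values were seen, and 1 gene of the rule is not reported here. Alternatives were another test, scaling, filter, set of libraries, replicate block, length offset and each library left out. Sequences are from RefSeq.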

Additional observations from a re-analysis of the deposited data

How the results depend on the processing

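The calls of the members against DMSO follow from their choice, and no stability is read from them; DESeq2 did not call MYH6 at 300 nM, nor did edgeR call MYL7 there without the first DMSO library. Members higher at 300 nM than at 100 nM numbered 3, with 0 when only the 2 groups compared were fitted, which left MYL7 and TNNT2 untested and MYBPC3 at an edgeR adjusted p of 0.147, and 5 with the exon length offset, MYH6 and TTN added. Members lower numbered 0, with 1 on total counts. Leaving out each library gave 2883 to 5036 genes lower at 100 nM, the lowest without the first 100 nM library, and 2896 to 4901 genes higher at 300 nM than at 100 nM, the lowest without the second. With the replicate block, 4 members were higher at 300 nM than at 100 nM, MYH6 added. Same-numbered libraries deviated together by correlations of only 0.0201, 0.00750 and 0.0748, so the numbers were not taken to pair them. The exon length offset turned TTN at 300 against 100 nM to 0.80 on the log2 scale, FLNC to 0.10 at 300 nM, ATP2A2 to 0.11 at 100 nM and 0.76 at 300 nM, and MYH9 to 0.32 at 300 nM, and MYL4 at 300 nM ran from -0.95 to 1.67 with each library left out in turn, the highest without the first DMSO library. DMSO ratios stayed within counting error under other scalings and on the deposited log2 matrix, on which 18 of 20 shares left were higher. Of the list counts, 83 of 780 moved by over 1.5 times. The cause was not tested. At 3 reads or fewer the depth limits every fold.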

Other observations

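Genes besides LAD1 and TTN-AS1 also overlap members. PTH1R, the parathyroid hormone receptor, overlaps MYL3 on the opposite strand and had 16 and 8 DMSO reads, 41 and 46 with 100 nM, and 77 and 110 with 300 nM. CCDC141, on the same strand as TTN, had 14 and 20 reads in DMSO and 0 in all 4 decitabine libraries. TYROBP, an immune adaptor gene listed among blood markers and named after its values were seen, had 0 reads in both DMSO libraries, 414 and 323 at 100 nM, and 496 and 470 at 300 nM.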
